A study of Homo sapiens with 6 samples.

Results

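The mesenchymal stem cell (MSC) surface markers NT5E, ENG, THY1, CD44, ALCAM, MCAM, VCAM1, LEPR and NGFR, and the myeloid marker CD33, were taken from the gene count table by their symbols, 10 genes of 58735. MSCs are marrow stromal cells that can form bone, cartilage and fat, and that support blood stem cells in the niche. They carry no marker of their own, and are recognised by a combination of surface proteins: CD73 (NT5E), CD105 (ENG) and CD90 (THY1) must be present, and proteins of blood cells must be absent. Further proteins mark stromal subsets in marrow, among them the leptin receptor and CD271 (NGFR), while CD33 belongs to the myeloid blood lineage.

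RNA was compared between UE7T-9 cells labelled WT (Control, 3 libraries) and the UE7T-9 SRRM4 KO line (3 libraries). UE7T-9 is a human marrow-derived MSC line, and SRRM4 is a splicing factor known mainly from neurons. The KO line had received a CRISPR vector by lentivirus and was grown as 1 clone by limiting dilution, so the effects of the guide and of the choice of clone cannot be told apart, and the study states that loss of the SRRM4 protein was not complete. The labels give the same treatment text for all samples, so it is not clear whether Control cells carried a vector. The paper says in general that every experiment was run 3 times or more. It does not say whether the 3 libraries of a group came from separate cultures. The p-values then measure the spread between these libraries, which may be technical.

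The libraries held between 21496117 and 23868323 counts. SRRM4 had 0 counts in all 6 libraries, so the knockout could not be checked from these counts. Of all genes, 15341 passed the filter on low counts and were tested. A gene was called when its adjusted p was under 0.05 and its log2 fold change (SRRM4 KO over Control) was beyond 1, in the quasi-likelihood test of edgeR after Benjamini-Hochberg adjustment, the source of every adjusted p given here. The call was made in 12.6% of tested genes, 5.45% higher and 7.14% lower, and 41.6% passed the adjusted p alone, 20.7% as higher and 20.9% as lower. Control replicate 1 differed more from the other Control libraries than these did from each other, with a chi-square per degree of freedom of 23.0 and 23.5 against 5.64. Without it, as without any other library, the calls among the 10 genes were 2 higher and 3 lower. Of other cell types, the defining markers PTPRC (0 to 2 counts per library), PECAM1 (0 to 3), EPCAM (0 to 2) and SOX10 (0 to 4) were at or near 0. Other genes of the same lists were expressed, among them the keratins KRT18 (1647 to 2165 counts) and KRT8 (287 to 602), and MITF (557 to 884). The summed level of 7 epithelial markers was 99.0 to 120 CPM in Control and 103 to 110 CPM in SRRM4 KO cells, and that of 6 neural and crest markers 29.8 to 43.3 and 28.8 to 30.7 CPM. Levels are given in CPM, the count scaled by the library total after TMM normalization.

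Of the 10 genes, 9 were tested, and NGFR had too few counts. CD33 passed the filter only through the KO libraries, so the counts that follow describe the genes and are no evidence about the group. CD44 and CD33 were called higher in SRRM4 KO cells, and THY1, VCAM1 and LEPR were called lower, beside 5.45% and 7.14% of all tested genes. NT5E and ALCAM were higher, and ENG and MCAM lower, by the adjusted p alone, which 41.6% of all tested genes passed. The median log2 fold change of the 9 genes was -0.34, and that of all tested genes was -0.01. The groups did not overlap in any of the 9 genes, as in 51.8% of all genes tested. In bulk RNA, fewer cells that express a gene and less of its RNA per cell cannot be told apart.

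**Figure D1:**
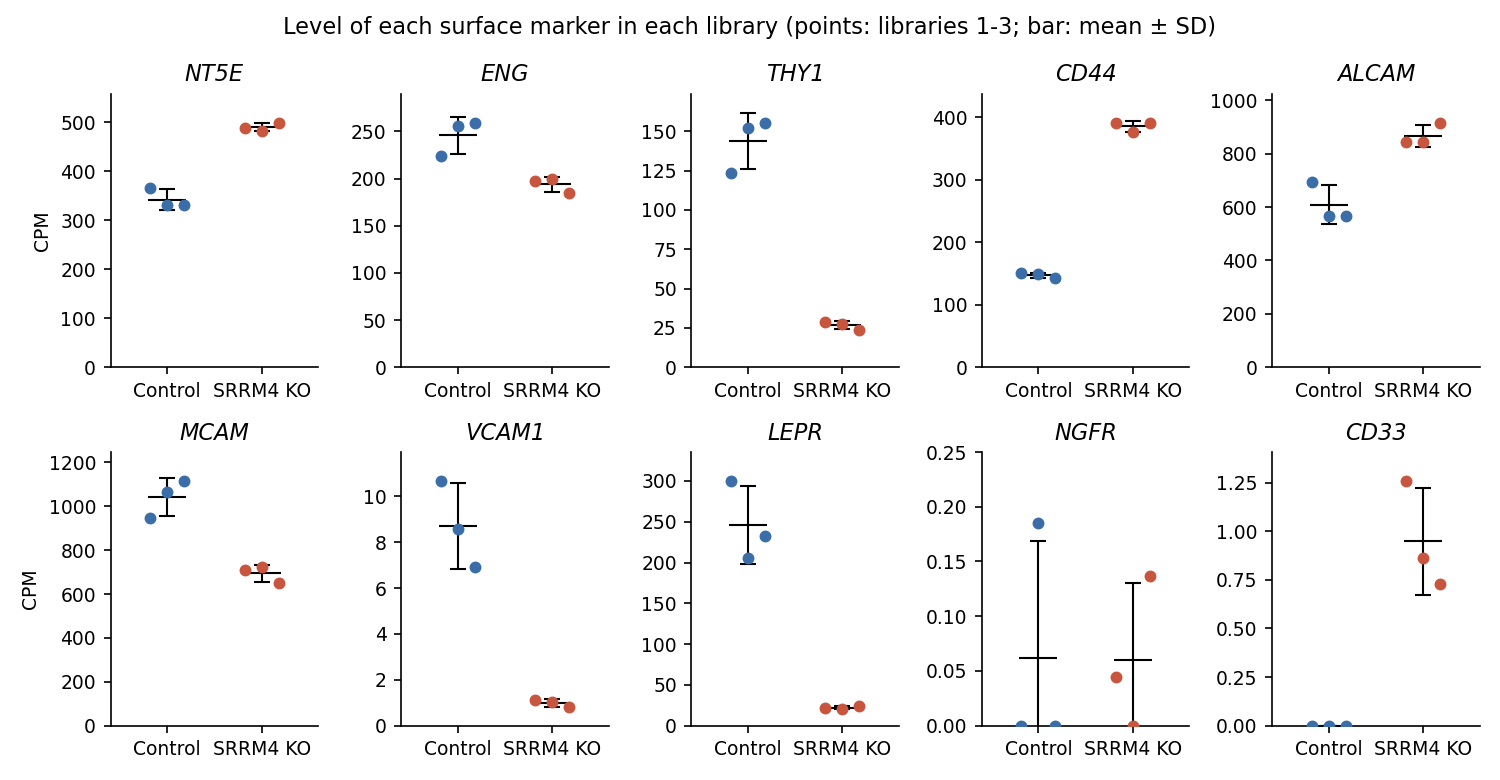
CPM of each gene in each library, with Control in blue and SRRM4 KO in red (points, libraries 1 to 3; bars, mean ± SD, cut at 0). Each panel has its own axis from 0, and the groups overlap in NGFR alone, whose highest library held 4 counts.

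For the genes whose RNA differed most, the 250 bases ahead of a transcript start in RefSeq (GRCh38.p14) are shown, with the motifs found there. The table of windows used here had entries for 8 of the 10 genes, all but THY1 and NGFR. A RefSeq start need not be the gene start of the count annotation given further on. The first transcribed base after the window is 100719742 for VCAM1, which is also the annotated gene start. It is 35139171 for CD44, 65420668 for LEPR and 51225080 for CD33, downstream of the annotated gene starts, so the CD44 window lies within the annotated gene and the windows of LEPR and CD33 reach into it. Motifs were searched on both strands, here and in all 35116 RefSeq windows of the same length. The TATA box, TATAAA, was found in 10.7% of all windows. The GC box, GGGCGG, was found in 42.6%. The core of the PU.1 motif, GAGGAA, was found in 23.6%. A kappa B motif, read as 3 G, any base, 2 T, any base and 3 C, was found in 1.55%, and the CCAAT box in 11240 windows. Capitals mark the matches, and each sequence runs 5′ to 3′ on the strand of the gene.
LEPR, chr1:65420418-65420667, plus strand: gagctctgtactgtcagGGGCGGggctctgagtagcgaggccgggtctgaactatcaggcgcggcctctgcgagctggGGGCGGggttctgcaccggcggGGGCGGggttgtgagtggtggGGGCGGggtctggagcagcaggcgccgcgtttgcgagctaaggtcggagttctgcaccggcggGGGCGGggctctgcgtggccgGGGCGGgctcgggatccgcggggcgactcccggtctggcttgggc
VCAM1, chr1:100719492-100719741, plus strand: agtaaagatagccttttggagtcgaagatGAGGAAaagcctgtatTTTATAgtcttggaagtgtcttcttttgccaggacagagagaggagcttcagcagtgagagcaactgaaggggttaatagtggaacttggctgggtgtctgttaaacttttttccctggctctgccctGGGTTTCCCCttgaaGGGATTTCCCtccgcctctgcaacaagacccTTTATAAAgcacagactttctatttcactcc
CD44, chr11:35138921-35139170, plus strand: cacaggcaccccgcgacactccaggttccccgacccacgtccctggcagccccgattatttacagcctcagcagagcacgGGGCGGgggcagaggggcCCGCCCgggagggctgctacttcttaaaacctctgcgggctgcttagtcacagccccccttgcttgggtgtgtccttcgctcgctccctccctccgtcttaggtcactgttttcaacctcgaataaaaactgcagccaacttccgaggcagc
CD33, chr19:51224830-51225079, plus strand: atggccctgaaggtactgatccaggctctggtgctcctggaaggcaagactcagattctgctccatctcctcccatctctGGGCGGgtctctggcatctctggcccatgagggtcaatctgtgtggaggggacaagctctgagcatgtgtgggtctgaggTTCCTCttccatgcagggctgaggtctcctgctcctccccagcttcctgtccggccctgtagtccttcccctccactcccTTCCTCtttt
The LEPR window held 6 GC boxes and none of the other motifs. It is 1 of 2 LEPR windows in the table, the other lying from 65420402 to 65420651, and was shown because the table gives the same window for the neighbouring gene LEPROT. The VCAM1 window held 2 kappa B matches, from -77 to -68 and from -62 to -53 counted back from the first transcribed base, and a TATA box from -29 to -24 that overlaps a match on the other strand from -31 to -26. It also held a TATA box match from -205 to -200 and 1 PU.1 core. The CD44 window held 2 GC boxes. The CD33 window held 1 GC box and 2 PU.1 cores. PU.1 (SPI1), the myeloid factor that reads this core, had 0 counts in every library. A match is a stretch of letters and was not tested as a binding site.

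The 3 markers that define MSCs went different ways. NT5E (ENSG00000135318; chromosome 6, 85449584 to 85495791) encodes CD73, the enzyme that makes adenosine from AMP outside the cell. It had 7934, 7116 and 7364 counts in Control and 10862, 11755 and 10973 in SRRM4 KO cells. Every KO library lay above all Control libraries, at 490 ± 8.19 against 342 ± 20.7 CPM (SD, n = 3). The rise was 1.43-fold, or 0.52 ± 0.074 (SE) in log2 units (95% interval 0.36 to 0.67, edgeR, adjusted p = 4.23e-05).

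ENG (ENSG00000106991; chromosome 9, 127815012 to 127854756, minus strand) encodes endoglin, a co-receptor for TGF-beta and BMP ligands. Its counts were 4847, 5510 and 5781 in Control and 4396, 4858 and 4065 in SRRM4 KO cells. The KO libraries were all lower, by a small margin at the nearest pair, 224 CPM in Control replicate 1 against 199 CPM in KO replicate 2. ENG fell 1.27-fold, or -0.34 ± 0.083 (SE) in log2 units (95% interval -0.52 to -0.17, edgeR, adjusted p = 0.00364). The median log2 fold change was -0.24 over the other tested genes of chromosome 9, and -0.10 over the 117 tested genes within 5 Mb of ENG. Relative to the chromosome median, the change in ENG was -0.10.

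THY1 (ENSG00000154096; chromosome 11, 119417378 to 119424985, minus strand) encodes CD90, a small glycoprotein held in the membrane by a lipid anchor. It had 2675, 3284 and 3468 counts in Control and 642, 670 and 523 in SRRM4 KO cells. The groups were far apart, at 144 ± 17.7 and 26.7 ± 2.62 CPM (SD, n = 3). THY1 fell 5.38-fold, or -2.43 ± 0.11 (SE) in log2 units (95% interval -2.67 to -2.19, edgeR, adjusted p = 3.63e-10). It was still well above the limit of detection, which is 3 counts or at most 0.139 CPM per library.

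The summed level of these 3 genes was nearly the same in both groups, but its makeup was not. Levels of different genes were compared per kilobase of gene length. This length covers the exons of all annotated transcripts, not the RNA expressed, so the comparison is rough and the shares depend on it. On that scale the sum was 162 ± 3.42 CPM per kilobase in Control and 162 ± 0.804 in SRRM4 KO cells (SD, n = 3). NT5E made up 46.6% ± 3.83 of it in Control and 66.8% ± 1.37 in SRRM4 KO cells (SD, n = 3). The share of ENG was 38.5% ± 2.29 and 30.4% ± 1.14 (SD, n = 3). The share of THY1 was 14.9% ± 1.54 and 2.78% ± 0.260 (SD, n = 3). The 2 groups of libraries did not overlap in any of the 3 shares.

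**Figure D2:**
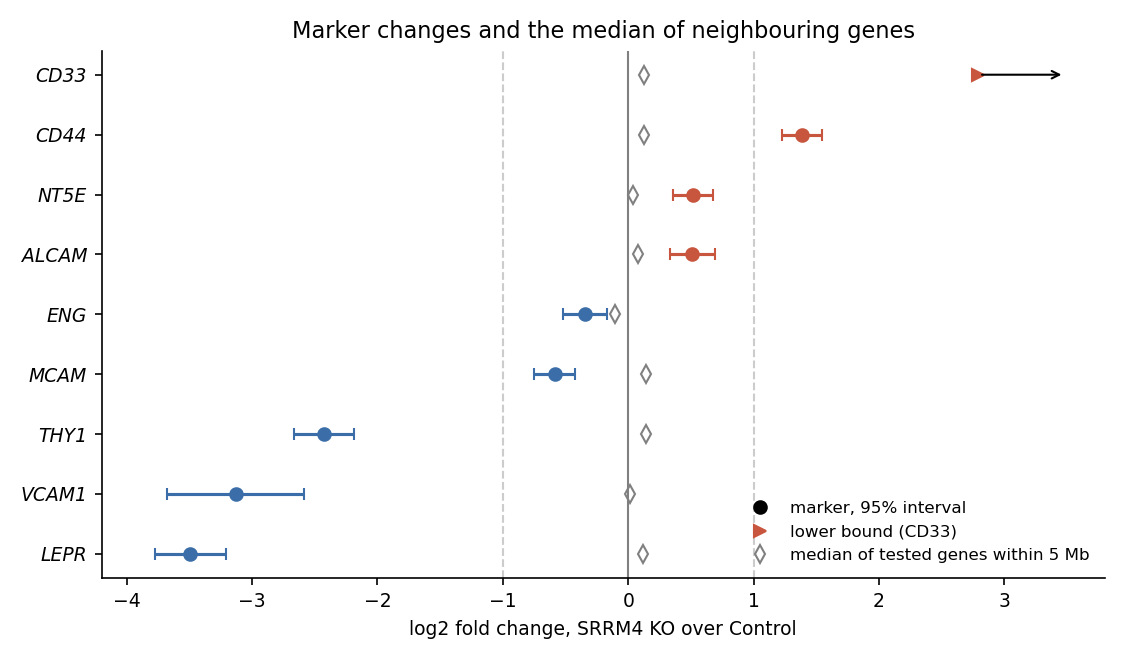
Log2 fold change of each tested gene with its 95% interval (circles; red higher, blue lower in SRRM4 KO), the lower bound for CD33 (triangle with arrow), and the median of the tested genes that start within 5 Mb (diamonds). The neighbours' medians lie between -0.10 and 0.14, while LEPR lies at -3.49; dashed lines mark the fold change threshold.

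Among the adhesion molecules, CD44 rose and VCAM1 fell. CD44 (ENSG00000026508; chromosome 11, 35138870 to 35232402) is the main receptor for hyaluronan. It had 3262, 3206 and 3184 counts in Control and 8693, 9145 and 8601 in SRRM4 KO cells. The libraries of each group lay close together, at 147 ± 4.09 and 386 ± 8.69 CPM (SD, n = 3). The rise was 2.62-fold, or 1.39 ± 0.075 (SE) in log2 units (95% interval 1.23 to 1.55, edgeR, adjusted p = 1.59e-09). The annotation lists 39 transcripts of CD44, and the counts do not tell them apart.

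VCAM1 (ENSG00000162692; chromosome 1, 100719742 to 100739045) encodes the vascular cell adhesion molecule that marrow stroma uses to hold blood stem cells. It had 231, 185 and 154 counts in Control and 25, 25 and 18 in SRRM4 KO cells. It was thus low in Control and lower in every KO library, at 8.71 ± 1.88 and 0.989 ± 0.156 CPM (SD, n = 3). VCAM1 fell 8.76-fold, or -3.13 ± 0.26 (SE) in log2 units (95% interval -3.68 to -2.59, edgeR, adjusted p = 1.38e-07).

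ALCAM (ENSG00000170017; chromosome 3, 105366909 to 105576900) encodes CD166, a homophilic adhesion molecule of marrow stroma. It had 15044, 12213 and 12649 counts in Control and 18763, 20548 and 20149 in SRRM4 KO cells, higher in every KO library. ALCAM rose 1.42-fold, or 0.51 ± 0.085 (SE) in log2 units (edgeR, adjusted p = 0.000183). MCAM (ENSG00000076706; chromosome 11, 119308529 to 119321521, minus strand) encodes CD146, known from perivascular stromal cells and endothelium. Its counts of 20569, 22960 and 24859 in Control were all above the 15791, 17594 and 14320 of the KO libraries. MCAM fell 1.502-fold, or -0.59 ± 0.076 (SE) in log2 units (edgeR, adjusted p = 1.77e-05).

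MCAM and THY1 are neighbours on the same strand, 95.9 kilobases apart, but their RNA fell to different degrees. Of the 9 genes annotated between them 2 were tested, RNF26 (log2 fold change 0.20, adjusted p = 0.0848, edgeR) and USP2 (0.26, adjusted p = 0.742, edgeR). The median of the tested genes within 5 Mb of THY1 was 0.14. MCAM shares 509 exon bases, 6.86% of its exons, with CBL on the other strand, which the unstranded libraries cannot separate. CBL had a log2 fold change of 0.14 (adjusted p = 0.293, edgeR).

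The leptin receptor gene showed the largest fall among the 10 markers. LEPR (ENSG00000116678; chromosome 1, 65420652 to 65641559) marks the stromal cells of adult marrow that produce niche factors, and its protein signals through JAK2 and STAT3. It had 6495, 4437 and 5199 counts in Control and 477, 496 and 525 in SRRM4 KO cells. Control replicate 1 was the highest, and the 3 KO libraries were nearly level, at 246 ± 48.2 and 21.9 ± 1.79 CPM (SD, n = 3). LEPR fell 11.3-fold, or -3.49 ± 0.13 (SE) in log2 units (95% interval -3.78 to -3.21, edgeR, adjusted p = 4.81e-11). Without any 1 library the value lay between -3.61 and -3.33.

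LEPROT, which encodes a small membrane protein that limits leptin receptor at the cell surface, has the RefSeq window shown above as its own and shares 165 exon bases with LEPR. It had 5478, 4884 and 5143 counts in Control and 4248, 4473 and 4235 in SRRM4 KO cells. The log2 difference was -0.32 ± 0.078 (SE; edgeR, adjusted p = 0.00369), small beside that of LEPR. Per kilobase, the level of LEPR was 54.6%, 41.8% and 46.6% of that of LEPROT in the Control libraries. In the KO libraries it was 5.17%, 5.11% and 5.71%. The groups did not overlap (exact permutation test, two-sided, p = 0.10, the smallest that 3 libraries against 3 can give). How reads on the shared bases were assigned is not given in the sources used here.

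NGFR (ENSG00000064300; chromosome 17, 49495293 to 49515017) encodes CD271, the low-affinity receptor for neurotrophins used to isolate MSCs from fresh marrow. It had 0, 4 and 0 counts in Control and 1, 0 and 3 in SRRM4 KO cells. The marker was at the limit of detection in both groups, and a difference was not detectable at this depth.

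CD33 (ENSG00000105383; chromosome 19, 51225064 to 51243860) encodes Siglec-3, a sialic acid-binding inhibitory receptor of myeloid cells. No Control library held a CD33 count, while the KO libraries held 28, 21 and 16. The KO counts sum to 65, with an exact Poisson 95% interval of 50.2 to 82.8 that covers counting error only. Over a floor of 3 counts per Control library, the KO mean of CD33 was 6.91-fold higher, and 5.79-fold higher without KO replicate 1. The error of the KO mean is not included. The test against no difference gave an adjusted p of 0.000188 (edgeR).

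Other myeloid genes were at 0, low or expressed, and went both ways. Of 14 myeloid markers 5 had 0 counts in all libraries, namely SPI1, LYZ, MPO, FCGR3A and AIF1, and CD68 had at most 1 count. The summed level of the 14 genes was 15.7 to 19.2 CPM in Control and 10.2 to 12.7 CPM in the KO libraries. In Control most of that was CD4, a co-receptor of T cells and monocytes, which fell by 1.32 on the log2 scale to 5.46 ± 1.00 CPM (SD, n = 3). Without CD4, the summed counts of the other 13 markers were 93, 69 and 96 in Control and 137, 137 and 120 in SRRM4 KO cells, with no overlap. Without LAPTM5 as well, they were 63, 48 and 72 against 90, 75 and 63, and the groups overlapped. The part of these genes in the CD33 result was not tested. CSF1R, the receptor of macrophage colony-stimulating factor, had 18, 16 and 11 counts in Control and 26, 21 and 15 in SRRM4 KO cells, and did not pass the test (log2 fold change 0.39, adjusted p = 0.560, edgeR). The integrin chain ITGAX (CD11c) had 40, 26 and 46 counts in Control and 52, 41 and 37 in SRRM4 KO cells, and did not pass it either (0.15, adjusted p = 0.763, edgeR). LAPTM5, a lysosomal protein of blood cells, was called higher (log2 fold change 1.07, adjusted p = 0.0207, edgeR), but in 4 of the 6 fits that left out 1 library it was not, with an adjusted p up to 0.0669. ITGAM (CD11b) had 5, 14 and 13 counts in Control and 0 in each KO library, the opposite direction to CD33, and was not tested.

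The CD33 gene lies among its relatives on chromosome 19, most of which had no counts or few. Of the 14 other members of the Siglec family searched, 8 had 0 counts in all libraries, among them SIGLEC5, SIGLEC7 and SIGLEC9. SIGLEC15, a Siglec of osteoclasts that lies on chromosome 18, was called higher, from 4.83 ± 0.180 to 15.7 ± 2.26 CPM (SD, n = 3), which is a log2 difference of 1.70 (adjusted p = 7.82e-07, edgeR). CD22, a B cell Siglec on chromosome 19, passed the adjusted p alone (log2 fold change 0.58, adjusted p = 0.0120, edgeR). The phosphatase PTPN6, through which CD33 signals in blood cells, had at most 6 counts in a library. The related PTPN11 was abundant, with a log2 fold change of -0.18 (adjusted p = 0.0819, edgeR).

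Per kilobase, the order of the levels changed at the top and in the middle. In Control it ran from MCAM (140 CPM per kilobase) over ALCAM (84.8), NT5E (75.5), ENG (62.5), THY1 (24.3), LEPR (21.6) and CD44 (14.7) down to VCAM1 (1.44). ALCAM and NT5E overlapped across libraries, as did THY1 and LEPR, so their order is not settled. In SRRM4 KO cells it ran from ALCAM (121 CPM per kilobase) over NT5E (108), MCAM (93.5), ENG (49.3), CD44 (38.5), THY1 (4.51) and LEPR (1.92) to VCAM1 (0.163) and CD33 (0.159). VCAM1 and CD33 overlapped there, and the libraries of the other neighbours did not. On this scale CD44 was the lowest of the 7 abundant markers in Control, and lay above THY1 and LEPR in every KO library. Its lowest place depends on gene length. In CPM without length, Control means were 147 for CD44, 144 for THY1 and 246 for LEPR.

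**Figure D3:**
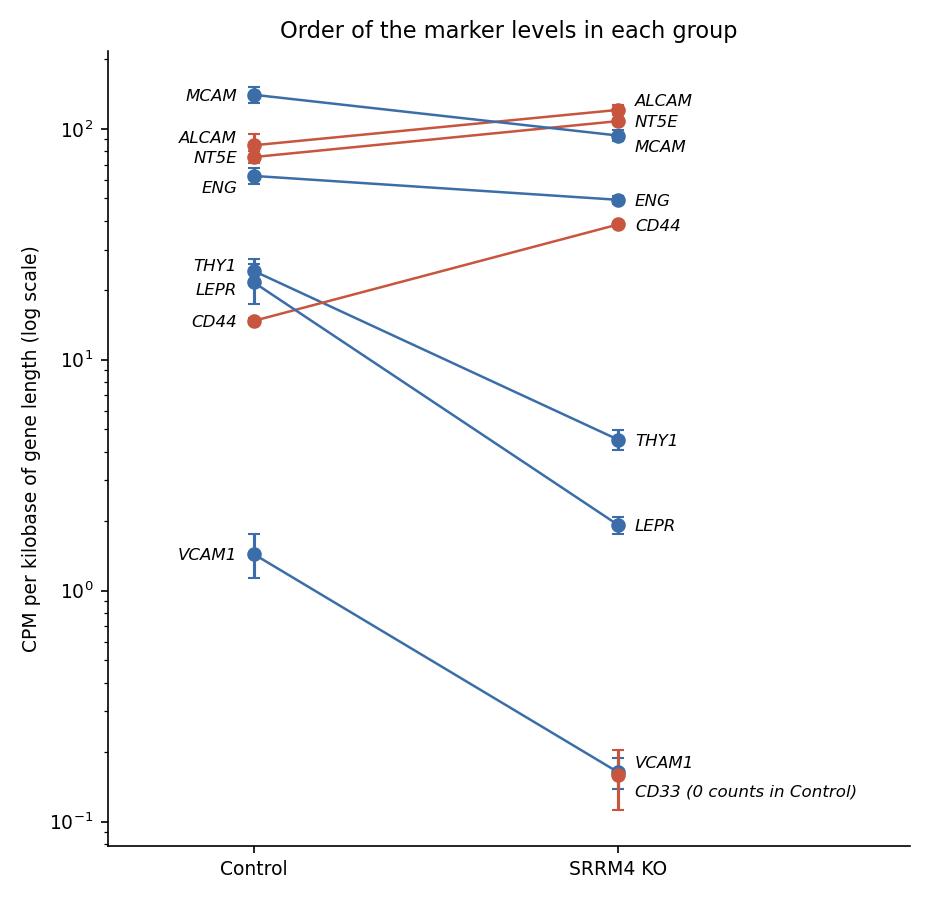
Mean level of each gene in CPM per kilobase of gene length (log scale) in Control and SRRM4 KO cells, with SD over 3 libraries (red higher, blue lower in SRRM4 KO; NGFR is left out). The lines of CD44 cross those of THY1 and LEPR, from 14.7 to 38.5 against 24.3 to 4.51 and 21.6 to 1.92.

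The genes that act with these markers were described as lists, each set beside the 12.6% of all tested genes that were called. Of 9 tested genes of the adenosine pathway around NT5E, 2 were called higher and 2 lower, with a median log2 fold change of 0.12. ADORA2B, an adenosine receptor, rose from 9.97 ± 2.24 to 35.8 ± 2.01 CPM (SD, n = 3), and DPP4 (CD26), which anchors adenosine deaminase, from 40.9 ± 0.576 to 132 ± 1.59 CPM (SD, n = 3). ENTPD1 (CD39), the enzyme that makes the AMP used by CD73, fell by 1.47 on the log2 scale, and the nucleoside transporter SLC29A1 fell by 1.71.

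Around endoglin, the list held receptors, ligands and MMP14, a protease that sheds endoglin. Of 11 tested genes 1 was called, lower, and the median log2 fold change was -0.49. By the adjusted p alone 7 were lower and 2 higher, beside 20.9% and 20.7% of all tested genes. The called gene was ACVRL1, the partner receptor of endoglin, which had 12, 20 and 14 counts in Control and 5, 0 and 0 in SRRM4 KO cells. The fit to all libraries put ACVRL1 at -3.17 on the log2 scale (adjusted p = 0.0110, edgeR). The size of this fall is uncertain, since only KO replicate 1 held counts. Leaving out KO replicate 2 or 3 ended the call (edgeR, adjusted p = 0.0524 and 0.0504). BMPR2 had a log2 fold change of -0.78 and TGFBR2 one of 0.33.

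Around CD44, no gene of 11 tested was called higher and 2 were called lower, with a median log2 fold change of -0.09. CEMIP, which breaks down hyaluronan, fell from 88.6 ± 4.44 to 2.94 ± 0.662 CPM (SD, n = 3), which is a log2 difference of -4.90 (adjusted p = 3.13e-12, edgeR). The hyaluronan synthases HAS2 (log2 fold change -0.50, adjusted p = 0.176, edgeR) and HAS3 (0.32, adjusted p = 0.154, edgeR) did not pass the test. CD74, a receptor that pairs with CD44, had 18, 26 and 55 counts in Control and 4, 0 and 0 in SRRM4 KO cells. Fitted to all libraries, the difference for CD74 was -4.56 on the log2 scale (adjusted p = 0.000609, edgeR). How far it fell is uncertain, since only KO replicate 1 held counts. Of the proteins that tie CD44 to actin, MSN (moesin) passed the adjusted p alone as higher, with a log2 fold change of 0.70, on chromosome X. EZR (ezrin; -0.09, adjusted p = 0.360, edgeR) and RDX (radixin; -0.09, adjusted p = 0.497, edgeR) did not pass it.

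Of 6 tested binding partners of VCAM1 and ALCAM, 1 was called, L1CAM, which fell from 21.2 ± 3.54 to 1.68 ± 0.573 CPM (SD, n = 3). ITGA4, the alpha chain of the integrin that binds VCAM1, passed the adjusted p alone as higher (log2 fold change 0.43, adjusted p = 0.00557, edgeR). CD6, the T cell ligand of ALCAM, had 0 counts in all libraries. None of the 6 tested genes of the leptin receptor pathway was called. Beside 41.6% of all tested genes, 3 of the 6 passed the adjusted p alone. These were PTPN1, a phosphatase that dampens leptin signalling, as higher (log2 fold change 0.52, adjusted p = 9.19e-05, edgeR), LEPROTL1, a relative of LEPROT, as lower (-0.37, adjusted p = 0.00686, edgeR), and LEPROT, given above. The receptor's kinase JAK2 had a log2 fold change of -0.07, STAT3 one of -0.13 and the feedback inhibitor SOCS3 one of -0.23, with adjusted p of 0.746, 0.182 and 0.164 (edgeR). Leptin itself (LEP) had 0 counts in all libraries.

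Of 7 tested genes of the neurotrophin pathway, 3 were called lower. All 3 passed the count filter only through Control, as did ACVRL1, CD74 and the endothelial marker TEK, so their count is a description only. NTF3 (neurotrophin 3) fell from 8.91 ± 0.336 to 0.357 ± 0.230 CPM (SD, n = 3), which is a log2 difference of -4.64 (adjusted p = 3.89e-08, edgeR). NTRK2, the receptor of BDNF, had 50, 56 and 79 counts in the Control libraries but no count in SRRM4 KO cells (edgeR, adjusted p = 2.84e-06). Over a floor of 3 counts per KO library, its Control mean was 21.4-fold higher. SORCS2, a co-receptor of NGFR, had 30, 19 and 30 counts in Control and 0, 4 and 0 in SRRM4 KO cells. Fitted to all libraries, the difference for SORCS2 was -4.26 on the log2 scale (adjusted p = 0.000725, edgeR). How far it fell is uncertain, since only KO replicate 2 held counts. BDNF itself was near level, with a log2 fold change of -0.10 (adjusted p = 0.455, edgeR).

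**Figure D4:**
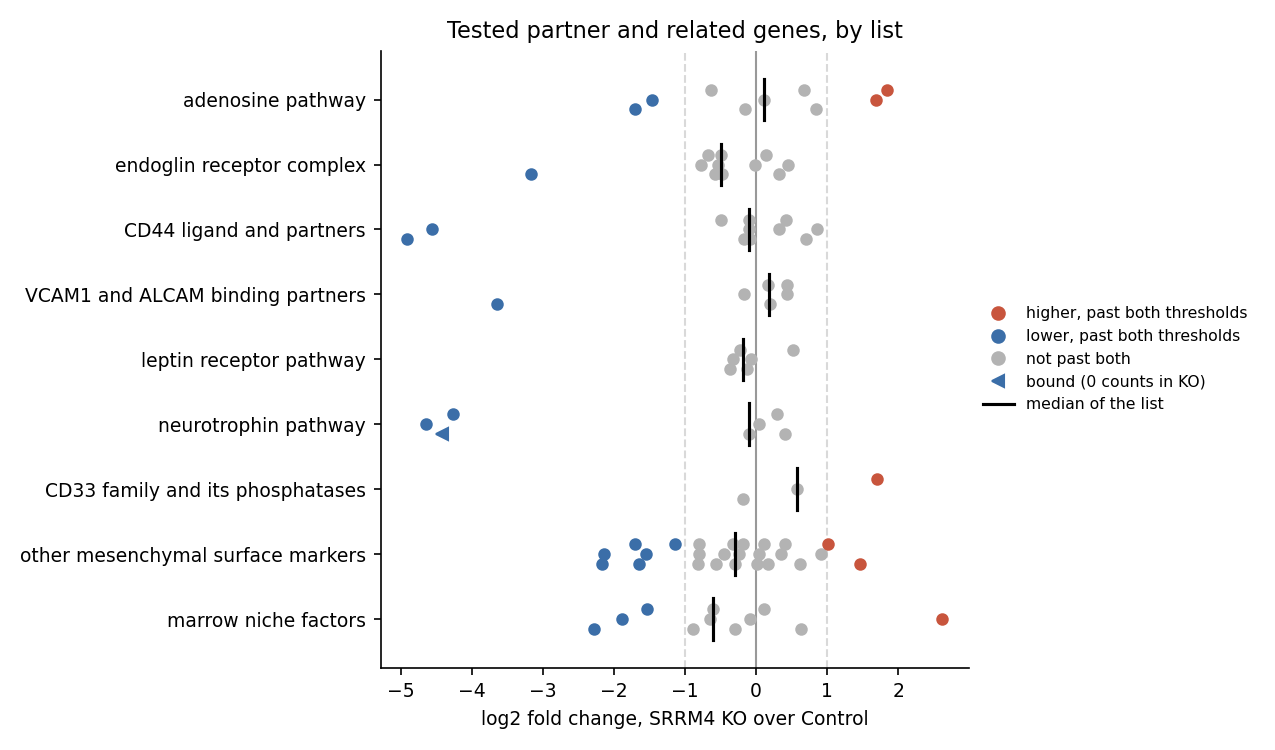
Log2 fold change of each tested gene in lists of partner and related genes (points; red and blue, called higher and lower; grey, not called; triangle, bound for NTRK2, which had 0 counts in the KO libraries; black lines, medians). Medians lie between -0.60 (marrow niche factors) and 0.58 (Siglecs and phosphatases).

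Other surface proteins used to describe mesenchymal cells were mostly lower or level. Of 25 tested genes, 6 were called lower and 2 higher, beside 7.14% and 5.45% of all tested genes, with a median log2 fold change of -0.30. By the adjusted p alone 13 were lower and 5 higher, beside 20.9% and 20.7%. The higher ones include MME, with a log2 fold change of 0.91 (adjusted p = 8.23e-07, edgeR). The platelet-derived growth factor receptor PDGFRA, a marker of marrow stroma, fell from 64.1 ± 4.25 to 21.99 ± 2.72 CPM (SD, n = 3), and PDGFRB fell by 2.14 on the log2 scale. ICAM1, an adhesion molecule related to VCAM1 in function, fell from 189 ± 17.6 to 42.1 ± 2.18 CPM (SD, n = 3), which is a log2 difference of -2.17 (adjusted p = 2.10e-10, edgeR). CSPG4 (NG2), a marker of pericytes, rose from 226 ± 27.8 to 623 ± 58.7 CPM (SD, n = 3). ANPEP (CD13) rose by a log2 fold change of 1.01, at the threshold, and was at 0.96 to 0.99 in 4 of the 6 fits that left out 1 library.

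Markers that MSCs should lack were described last. CD34 had 66 to 93 counts in Control and 68 to 93 in SRRM4 KO cells, and CD14 had 347 to 377 and 324 to 392. Neither passed the test, with log2 fold changes of -0.02 (95% interval -0.53 to 0.49) and -0.08 (-0.35 to 0.20). CD79A had at most 5 counts, and HLA-DRB1 had 0 counts in all libraries. HLA-DRA had 7, 11 and 9 counts in Control and 0, 4 and 1 in SRRM4 KO cells. RNA of NT5E and ENG was thus abundant in both groups, while that of THY1 fell from 144 to 26.7 CPM. PTPRC and CD79A were near 0 in both groups, and CD34 and CD14 were detected in every library. ITGAM, given above, had counts in Control only. Since MCAM, ENG and VCAM1 are also endothelial genes, endothelial markers were examined beside them. PECAM1 and CDH5 had at most 3 counts in a library, and the summed level of 8 such markers was 25.2 to 32.04 CPM in Control and 11.4 to 13.4 CPM in SRRM4 KO cells. The fall of the sum came from TEK, which fell 13.9-fold, and KDR, which fell 3.03-fold. The summed counts of the other 6 markers were 82, 199 and 153 in Control and 202, 198 and 186 in SRRM4 KO cells, and the groups overlapped. Of these, EGFL7 had a log2 fold change of 0.46 and VWF one of -0.35, and neither passed the test (adjusted p = 0.173 and 0.587, edgeR). The part of endothelial markers in the values of MCAM, ENG and VCAM1 was not tested.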

How the data were processed

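RNA of 3 Control and 3 SRRM4 KO libraries of UE7T-9 cells was measured by mRNA-seq without strand information. The authors deposited raw counts per gene, without normalization, in 1 table. The submitters' processing notes name HISAT2 2.0.5, featureCounts 1.5.0-p3 and DESeq2. The genome build and the treatment of ambiguous reads are not given in the sources used here. All 58735 gene IDs were found in GENCODE release 29 (GRCh38), 58724 with identical coordinates, including those of the 10 genes. Gene length is the column of the deposited table. For the 10 genes it equals the bases covered by the exons of all annotated transcripts.

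Counts were tested with edgeR 4.0.16 in R 4.3.3 (TMM, filterByExpr, prior count 0.125, quasi-likelihood test, Benjamini-Hochberg over 15341 genes, all 6 libraries, no covariate). The standard error is the fitted log2 difference divided by the root of F. Where all libraries of 1 group had 0 counts, a bound is given, the mean of the other group over 3 counts per library. It does not include the error of that mean. The genes, lists and alternatives were chosen with earlier results of these data known. Named were the 10 genes, up to 3 called genes per list and direction by mean CPM, defining markers of other cell types, genes overlapping or nearest in pattern to a member, and further list genes chosen after their values were seen. Alternatives were DESeq2 1.42.0 size factors and test, upper-quartile scaling, 2 filters, protein-coding genes only, glmTreat, leaving out each library, a block for replicate number, and centring by chromosome. The test was tried on simulated counts before use. Replicate numbers did not pair the libraries. The study's flow cytometry was not analysed here. The paper reports CD73 and CD105 protein as unaffected by the knockout, and CD90 protein as lacking in Control cells. The RNA values given here are not measures of surface protein.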

Additional observations from a re-analysis of the deposited data

How the results depend on the processing

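The direction of all 9 tested genes, and their side of an adjusted p of 0.05, held under the alternatives in which each gene had a fitted value and a p-value, which leaves out glmTreat and centring by chromosome. A filter of at least 10 counts in every library left CD33 untested, so 1 of the 10 genes was then called higher. Testing against the threshold itself with glmTreat called 360 genes higher and 577 lower over the whole table, against 836 and 1096, and 2 of the 10 genes higher and 3 lower, with no separate value per gene. With each library left out in turn, 791 to 875 genes were called higher and 1029 to 1162 lower, with 2 of the 10 genes higher and 3 lower in each fit. Centring by chromosome gave log2 fold changes of 0.42 for NT5E, -0.10 for ENG, -2.53 for THY1, 1.28 for CD44, 0.39 for ALCAM and -0.69 for MCAM, with no test. Same-numbered libraries did not deviate together (correlations of -0.05, 0.08 and -0.05), and with the replicate number as a block 842 genes were called higher and 1093 lower, with 2 of the 10 genes higher and 3 lower. The median log2 fold change of all genes was -0.01 with DESeq2 size factors and -0.04 with upper-quartile scaling. Ranks of levels from CPM without gene length differ for ENG, THY1, CD44 and LEPR in Control and for NT5E, ENG, CD44 and MCAM in SRRM4 KO cells. CD33 and NGFR are limited by depth, and VCAM1 held 25, 25 and 18 counts in the KO libraries.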

Other observations

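Genes of the marrow niche, a list of secreted or membrane-bound factors and of markers and regulators of niche cells, went both ways. Of 11 tested, 3 were called lower and 1 higher, beside 7.14% and 5.45% of all tested genes. The median log2 fold change was -0.60, the value of the transcription factor EBF3. ANGPT1 (angiopoietin 1), the ligand of TEK, fell from 88.5 ± 13.0 to 23.92 ± 2.41 CPM (SD, n = 3), and NES (nestin) from 20.2 ± 3.71 to 6.96 ± 1.07 CPM (SD, n = 3). CXCL12 fell by 2.28 on the log2 scale, and SPP1 (osteopontin), with a log2 fold change of 2.62, was the gene called higher. KITLG (stem cell factor) passed the adjusted p alone as higher, with a log2 fold change of 0.64 (adjusted p = 9.42e-05, edgeR's quasi-likelihood test). FOXC1, a regulator of niche cells, passed it as lower (-0.65, adjusted p = 2.37e-05, same test), while IL7 and CSF1 did not pass it.

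For each of the 5 called markers, the tested gene of most similar pattern was taken as the one with the smallest root mean square difference in centred log2 CPM over the 6 libraries. It was NOTCH3 for THY1 (0.043), ARHGAP11A for CD44 (0.041), HGF for LEPR (0.085), PTPRD for VCAM1 (0.18) and MSI2 for CD33 (0.27). CD33 had 0 counts in Control, so its pattern there is set by the prior count of 2 in the log2 CPM, and the match depends on it. NOTCH3 went from 248 to 44.9 CPM and HGF from 15.7 to 1.45 CPM. These were the nearest of all tested genes with a mean of at least 1 CPM, and the likeness rests mainly on the difference between the groups.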
